A study of Homo sapiens with 8 samples.

Results

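CD44 and 9 other genes that mark or control the mesenchymal form of glioblastoma were followed in the human glioblastoma line U87 during siRNA knockdown of RND3. RND3 encodes RhoE, an atypical small GTPase. The 10 genes were CD44, CHI3L1, VIM, TGFBI, RUNX1, CEBPB, CEBPD, LGALS3, NF1 and TRADD, taken by name as genes of this subtype. They were found by the RefSeq transcript accession of each probe, which gave 16 probes out of 42405 and 10 genes out of the 19483 gene symbols matched. All 16 probes were well above background on all 8 arrays. The arrays were 3 of non-silencing control cells (labelled NSC, here siControl) and 3 of RhoE knockdown cells (labelled RhoE KD, here siRND3) at 24 h after transfection, and 1 of each at 48 h. All were of the same line and were reverse transfected with Lipofectamine RNAiMAX, the controls included. Whether replicates were separate transfections is not in the labels, and the methods describe 2 RND3 siRNAs with no statement of the siRNA behind each array. P-values therefore measure only the spread between these arrays, which may be technical.

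Glioblastomas are grouped by their expression into subtypes, and the mesenchymal subtype carries genes of the connective tissue, inflammatory and wound programmes. CD44, the cell surface receptor for hyaluronan, and CHI3L1, the secreted glycoprotein YKL-40, are its best known markers. Its programme is driven by transcription factors including C/EBPβ and RUNX1, and loss of NF1, a Ras GTPase-activating protein, is its typical genetic lesion. CD44 carries out much of its work through hyaluronan made by the HAS enzymes, through ERM proteins that tie it to actin, and through cleavage at the membrane.

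The knockdown itself was visible on the arrays. The RND3 probe (A_23_P142849, 10 spots) read 11.88, 11.91 and 11.90 on the siControl arrays and 10.13, 10.19 and 10.41 on the siRND3 arrays at 24 h, as log2 normalised intensity, the unit of all levels here. It fell by 1.66 (SE 0.09, limma adjusted p 0.000338), to 31.7% of control, and stood at 31.9% of control at 48 h. The siRND3 arrays lay in row 1 and the siControl arrays in row 2 of a single slide, and the effects of row and treatment cannot be told apart. Both 48 h arrays lay in column 4 of that slide and the 24 h arrays in columns 1 to 3. The effects of column and time therefore cannot be told apart either, which holds for every change between 24 and 48 h given here. Of the glioma and astrocyte lineage markers, NES, VIM, SOX9 and SLC1A3 were well above background on all 8 arrays, and GFAP and SOX2 on none. OLIG2 (-1.40, adjusted p 0.00166, but -0.34 with normexp and -0.60 in the authors' values) and SLC1A3 (-0.34, adjusted p 0.0312, lost without any 1 of the 6 arrays of 24 h) fell and NES rose, and the summed intensity of the lineage list without VIM was 2180 to 2280 in siControl and 2070 to 2250 in siRND3 cells at 24 h. Of the 3 neuron markers, RBFOX3 was above background on no array, and SYT1 (-0.49, adjusted p 0.0249) and SNAP25 (-0.42, adjusted p 0.0190) fell with knockdown, both losing the threshold without any 1 siControl array. SYT1 also lost it without siRND3 replicate 1 (adjusted p 0.0632) or 2 (adjusted p 0.0741), and was -0.26 with normexp and -0.20 as a mean of its probes (adjusted p 0.214). The summed intensity of the 3 neuron markers was 1910 to 1990 in siControl and 1360 to 1530 in siRND3 cells at 24 h. Of the 4 endothelial markers, PECAM1 fell (-0.99, adjusted p 0.0212, lost without siRND3 replicate 2 or any 1 siControl array, and -0.33 with normexp and -0.52 in the authors' values), and their summed intensity was 291 to 310 against 297 to 323. None of the tested leukocyte, fibroblast or epithelial markers passed. The summed intensity of the leukocyte list was 4760 to 5090 in siControl and 5320 to 6260 in siRND3 cells at 24 h, and 4250 against 6990 at 48 h. For the fibroblast list it was 915 to 984 against 737 to 966 at 24 h, and 1170 against 1430 at 48 h. For the epithelial list it was 53.0 to 63.0 against 45.4 to 51.7 at 24 h, and 38.0 against 40.6 at 48 h. The part of these shifts in the results was not tested. In these bulk samples of a cultured line, fewer cells that express a gene and less of its RNA per cell cannot be told apart.

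At 24 h, 2 of the 10 genes were lower in siRND3 cells at an adjusted p under 0.05 (limma, Benjamini-Hochberg over 28759 probes), CD44 and CEBPB, and 0 were higher. At an unadjusted p under 0.05, RUNX1 was the only further gene and 0 were higher. Of all 14797 genes tested by their brightest probe, 15.0% passed, 8.31% lower and 6.71% higher, so the 2 of 10 are close to that background. The siRND3 arrays lay all below the siControl arrays for 4 of the 10 (CD44, TGFBI, RUNX1 and CEBPB) and all above for 1 (TRADD), where 17.5% of all genes lay below, 24.1% above and 41.6% in either way. The median difference of the 10 was -0.08 at 24 h and -0.26 at 48 h on the log2 scale, against 0.04 and 0.06 over all genes. Their differences were below 0 for 7 of 10 at 24 h and for 8 of 10 at 48 h, and below 0 at both times for 6 of 10, where 31.2% of all genes were. CD44 is one of the genes the study itself singled out on these same arrays, so its fall is not independent evidence of a direction.

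**Figure D1:**
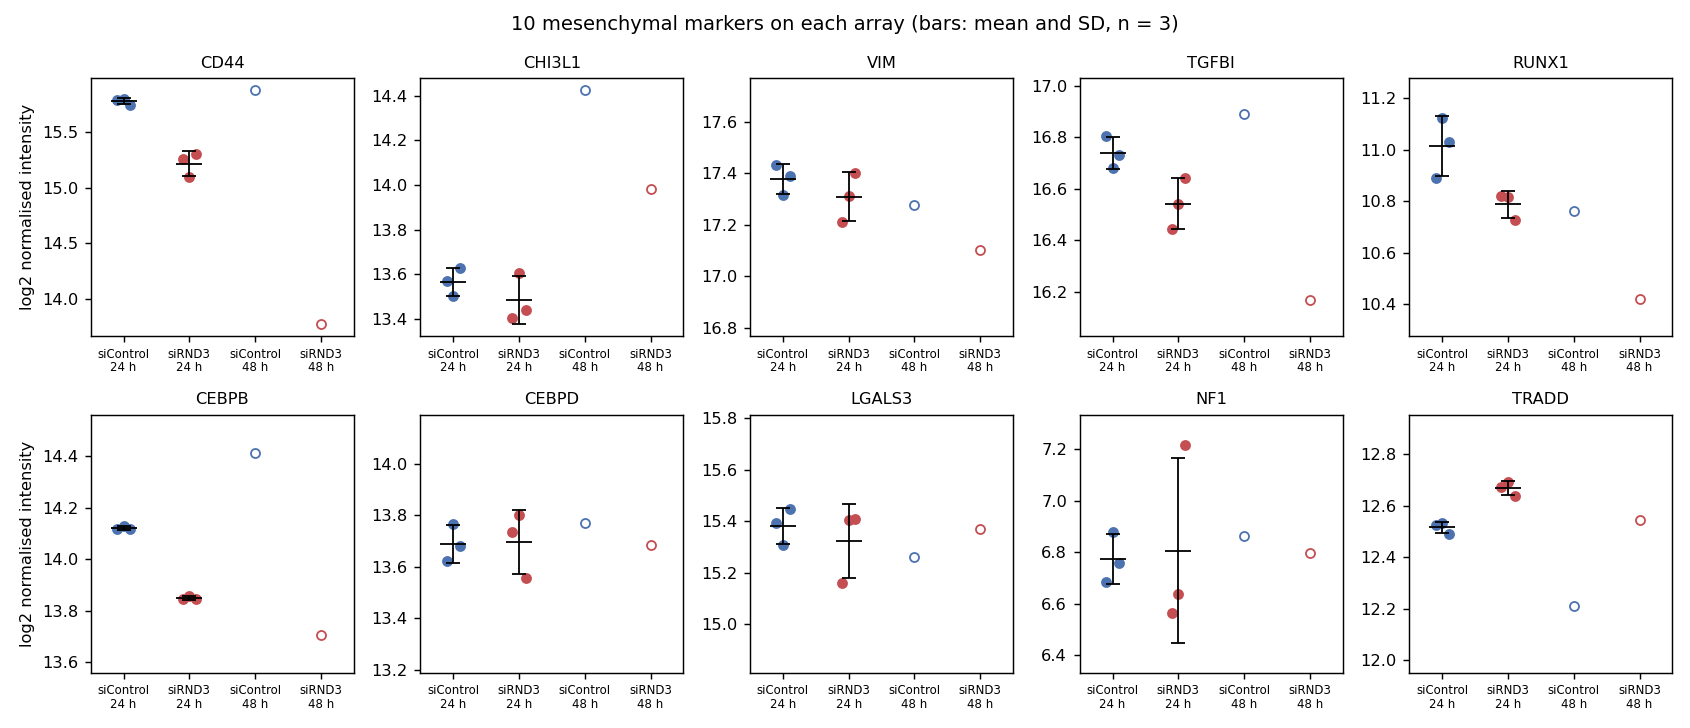
Log2 normalised intensity (vertical axis, a scale of its own in each panel) of the brightest probe of each of the 10 genes on each of the 8 arrays, in siControl (blue) and siRND3 (red) cells at 24 h (filled) and 48 h (open). Horizontal bars are the mean and SD of 3 arrays; CD44 dropped from about 15.78 to 15.22 at 24 h and read 13.77 on the siRND3 array at 48 h.

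CD44 showed the largest difference of the 10 at both times by the brightest probes. Its 1 probe (A_33_P3294509, transcript NM_000610) read 15.79, 15.80 and 15.75 on the siControl arrays and 15.26, 15.09 and 15.30 on the siRND3 arrays at 24 h. The groups did not overlap, and siRND3 replicate 2 was the lowest. The level fell by 0.56 (SE 0.08, 95% interval -0.76 to -0.37, limma adjusted p 0.00855), to 67.8% of control. The exact two-sided permutation test of 3 arrays against 3 gave p = 0.1, the smallest it can give. The call held under all 19 alternatives, with differences from -0.95 to -0.50 and adjusted p from 0.000688 to 0.0455 where a p was given, the value of -0.95 coming from a fit with terms for treatment and time that included the 48 h arrays. Of all genes tested, 5.85% had a difference at or below that of CD44 at 24 h.

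At 48 h the siControl array read 15.88 for CD44 and the siRND3 array 13.77. That is a difference of -2.11, or 23.2% of control, with 1 array a group and no test of its own. CD44 was the only one of the 10 past a difference of -1 by its brightest probe, where 6.81% of all genes were. The effect at 48 h was larger than that at 24 h by -1.55 (95% interval -1.94 to -1.16, limma adjusted p 0.0184), in a model that assumes each single 48 h array to vary like the 24 h arrays. CD44 was the only one of the 10 genes to pass that test by its brightest probe, where 3.76% of all genes did. The adjusted p was 0.0704, 0.0682 and 0.0736 when siControl replicate 1, 2 or 3 was left out. RND3 itself had nearly the same difference at both times (change of effect 0.01, 95% interval -0.44 to 0.45, adjusted p 0.990).

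As far as 1 array a group at 48 h, in a slide column of its own, can show, the move of CD44 between the times lay in the knockdown cells. Between 24 and 48 h its level differed by 0.10 in siControl cells (95% interval -0.18 to 0.38, limma adjusted p 0.649) and fell by 1.45 in siRND3 cells (95% interval -1.72 to -1.17, adjusted p 0.00283). The difference of these changes is the same contrast as the change of effect given above. Among the 10, 1 gene passed in siRND3 cells over time by its brightest probe (background 11.5%) and 1 in siControl cells (CHI3L1, background 4.73%).

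**Figure D2:**
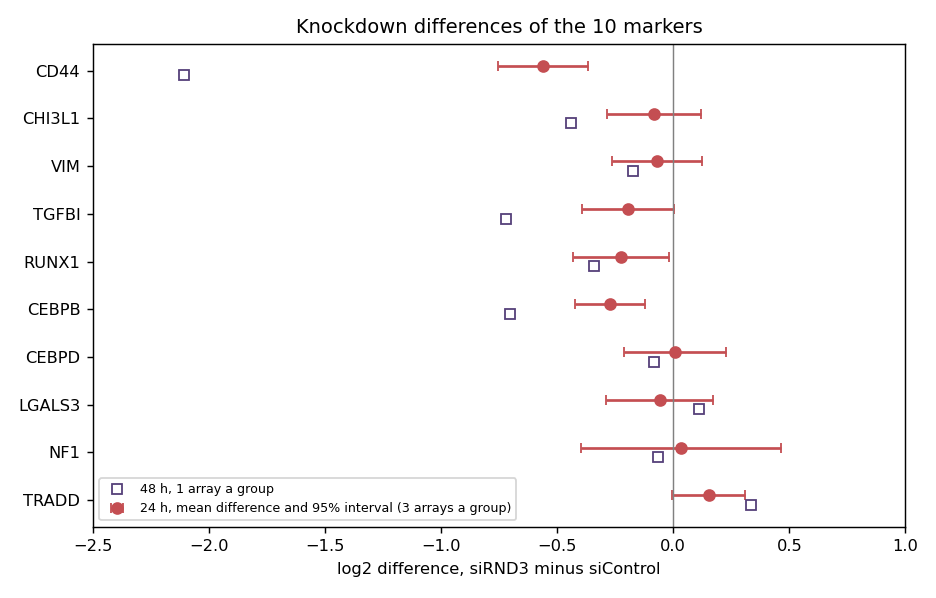
Log2 difference of siRND3 minus siControl (horizontal axis) for the brightest probe of each of the 10 genes, at 24 h with its 95% interval (filled, 3 arrays a group) and at 48 h (open squares, 1 array a group, no interval). CD44 lies at -0.56 and -2.11, CEBPB is the other gene past the threshold at 24 h, and TRADD lies above 0 at both times.

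The other surface and matrix markers had smaller differences. CHI3L1 (A_23_P137665), the secreted chitinase-like protein, read 13.57, 13.50 and 13.63 in siControl and 13.41, 13.61 and 13.44 in siRND3 cells at 24 h. The groups overlapped, with siRND3 replicate 2 inside the control range, and the difference was -0.08 (95% interval -0.29 to 0.12, limma adjusted p 0.574). At 48 h it read 14.43 on the siControl and 13.98 on the siRND3 array. Both 48 h arrays were above all 6 arrays of 24 h. In siControl cells CHI3L1 rose by 0.86 between 24 and 48 h (95% interval 0.57 to 1.14, adjusted p 0.0214), and in siRND3 cells the change was 0.50 (95% interval 0.21 to 0.79, adjusted p 0.0515). The first of these lost the threshold without siControl replicate 1, 2 or 3 (adjusted p 0.0687 to 0.0737), and the second passed without siRND3 replicate 2 (adjusted p 0.0391). The changes did not differ past the threshold (-0.36, 95% interval -0.76 to 0.05, adjusted p 0.324).

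TGFBI (A_23_P156327), a matrix protein induced by TGF-β, read 16.81, 16.68 and 16.73 in siControl and 16.45, 16.54 and 16.64 in siRND3 cells at 24 h. The groups did not overlap, but the difference of -0.20 did not pass (95% interval -0.40 to 0.0016, limma adjusted p 0.180). At 48 h the readings were 16.89 and 16.17, a difference of -0.72. This was the second largest difference of the 10 at that time by the brightest probes, and the change of effect between times was -0.52 (95% interval -0.92 to -0.13, adjusted p 0.161).

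VIM (A_23_P161190), the intermediate filament protein of mesenchymal cells, read 17.43, 17.32 and 17.39 in siControl and 17.21, 17.31 and 17.40 in siRND3 cells at 24 h. These groups overlapped, with siRND3 replicate 3 within the control range. The difference was -0.07 (95% interval -0.26 to 0.12, limma adjusted p 0.624) and turned to 0.0066 when arrays were scaled to the 75th percentile. At 48 h VIM read 17.28 and 17.10. LGALS3 (A_23_P128919), the β-galactoside-binding lectin galectin-3, read 15.39, 15.31 and 15.45 against 15.16, 15.40 and 15.41 at 24 h. Only siRND3 replicate 1 lay below the controls. The difference was -0.06 (95% interval -0.29 to 0.17, adjusted p 0.735), and 0.02 without that array. At 48 h LGALS3 read 15.26 in siControl and 15.37 in siRND3 cells.

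Among the transcription factors, CEBPB, which encodes C/EBPβ, was the lower gene at 24 h. Its probe (A_23_P411296, 10 spots an array) read 14.12, 14.13 and 14.12 in siControl and 13.85, 13.86 and 13.85 in siRND3 cells. Each group spanned less than the distance between them, the SDs being 0.0064 and 0.0070. CEBPB fell by 0.27 (SE 0.06, 95% interval -0.42 to -0.12, limma adjusted p 0.0411), to 82.8% of control. The call ended without any 1 of the 6 arrays (adjusted p 0.0746 to 0.147) and under scaling to the 75th percentile (-0.22, adjusted p 0.0919). At 48 h CEBPB read 14.41 in siControl and 13.71 in siRND3 cells, and thus differed by -0.71. The siControl value lay above, and the siRND3 value below, all arrays of 24 h, and the change of effect was -0.43 (95% interval -0.74 to -0.13, adjusted p 0.137). CEBPD, which encodes the related factor C/EBPδ, read 13.62, 13.77 and 13.68 against 13.73, 13.80 and 13.56 at 24 h on its probe A_33_P3253804. The groups overlapped, with siRND3 replicate 3 lowest and replicate 2 highest of the 6. Its difference was 0.01 (95% interval -0.21 to 0.23, adjusted p 0.968), and at 48 h it read 13.77 and 13.69.

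RUNX1, a factor that binds DNA with the partner CBFβ, had 5 probes, and they did not behave alike. The brightest (A_33_P3211804, NM_001001890) read 10.89, 11.13 and 11.03 in siControl and 10.82, 10.82 and 10.73 in siRND3 cells at 24 h. The groups were just apart, and the difference of -0.23 did not pass (95% interval -0.43 to -0.02, limma adjusted p 0.147). A second probe listed under the same transcript (A_24_P96403, 2 spots) read 11.18, 11.19 and 11.20 in siControl and 9.85, 9.92 and 10.07 in siRND3 cells. These groups lay far apart. On this probe RUNX1 fell by 1.24 (SE 0.08, adjusted p 0.000513), to 42.3% of control, with values from -1.49 to -1.19 and adjusted p up to 0.0106 over 18 settings, all past the threshold. Of all probes tested, 11.8% passed at 24 h.

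At 48 h the same probe read 10.70 in siControl and 8.48 in siRND3 cells. The difference was -2.23, or 21.4% of control. Its effect at 48 h was larger than at 24 h by -0.98 (limma adjusted p 0.0371, where 2.78% of all probes passed), a call that ended without any 1 of the 6 arrays of 24 h (adjusted p 0.0542 to 0.103). Between 24 and 48 h it fell by 1.47 in siRND3 cells (adjusted p 0.00277, where 9.12% of all probes passed). In siControl cells the same probe was also lower at 48 h than at 24 h, by 0.48, on 1 array. The brightest probe read 10.76 and 10.42 at 48 h.

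The disagreement of these probes can be read within each array. The log2 ratio of A_24_P96403 to A_33_P3211804 was 0.29, 0.06 and 0.17 on the siControl arrays and -0.97, -0.89 and -0.66 on the siRND3 arrays at 24 h. The ratio was lower on every siRND3 array, by -1.02 in the mean (exact two-sided permutation p = 0.1, the smallest possible with 3 against 3). At 48 h the ratio was -0.06 in siControl and -1.94 in siRND3 cells. Such a ratio shows that the probes changed unequally and not which of them follows the gene.

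The other RUNX1 probes were dimmer. A_24_P34155 (-0.19, limma adjusted p 0.20) and A_33_P3211809 (-0.14, adjusted p 0.269), both listed under NM_001122607, were lower on all 3 siRND3 arrays than on any siControl array at 24 h without passing. A_33_P3211818 (0.02, adjusted p 0.957) had overlapping groups. Between 24 and 48 h A_24_P34155 and A_33_P3211809 each rose in both siControl and siRND3 cells. The rises were 0.68 and 0.43 for A_24_P34155, and 0.53 and 0.49 for A_33_P3211809, with changes of effect of -0.25 and -0.03. With time A_24_P34155 rose by 0.68 in siControl cells (adjusted p 0.0353, where 3.61% of all probes passed) and A_33_P3211809 rose by 0.49 in siRND3 cells (adjusted p 0.0392), opposite to A_24_P96403. The first of these calls ended without any 1 of the 6 arrays of 24 h (adjusted p 0.0536 to 0.0963), and the second without any of them except siRND3 replicate 3 (adjusted p 0.0565 to 0.0914). When the 5 probes were averaged, RUNX1 had a difference of -0.36 (adjusted p 0.0104). Counting a gene by any of its probes gave 3 of the 10 genes lower at 24 h in place of 2. The third was RUNX1, through A_24_P96403 alone, and 9.29% of all genes were lower by that count.

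**Figure D3:**
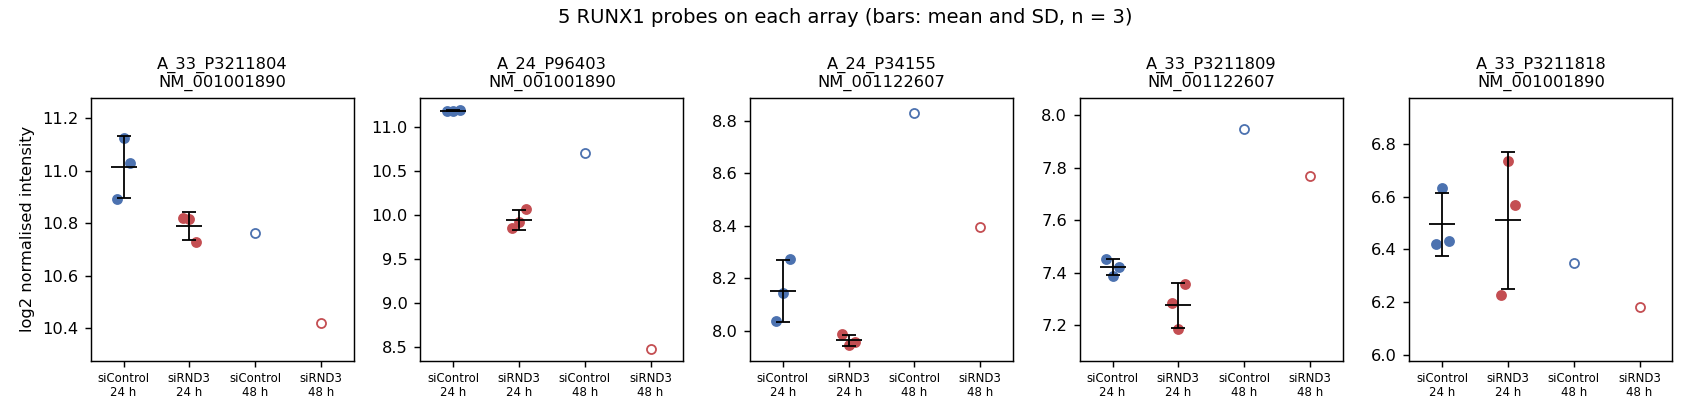
Log2 normalised intensity (vertical axis, a scale of its own in each panel) of the 5 RUNX1 probes on each array, titled by probe and listed transcript, with siControl in blue, siRND3 in red, 24 h filled and 48 h open. Bars are the mean and SD of 3 arrays; the probe A_24_P96403 falls from 11.19 to 9.95 at 24 h, while the brightest probe, listed under the same transcript, reads 11.02 and 10.79.

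The genes that feed the subtype through Ras and TNF signalling were NF1 and TRADD. NF1 had 3 probes. The brightest (A_24_P917026) read 6.69, 6.88 and 6.76 in siControl and 6.56, 6.64 and 7.22 in siRND3 cells at 24 h. The siRND3 group spanned the whole control group, and replicate 3 was the highest array on all 3 NF1 probes. The difference was 0.03 (95% interval -0.40 to 0.46, limma adjusted p 0.928), and -0.17 without siRND3 replicate 3. The other probes gave 0.02 and -0.05, and at 48 h the brightest read 6.86 and 6.80.

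TRADD (A_23_P54649), the adaptor that joins TNF receptor 1 to NF-κB and death signalling, had a difference above 0 at both times. It read 12.53, 12.53 and 12.49 in siControl and 12.67, 12.69 and 12.64 in siRND3 cells at 24 h. All siRND3 arrays were above all siControl arrays, but the difference of 0.15 did not pass (95% interval -0.0043 to 0.31, limma adjusted p 0.187). At 48 h TRADD read 12.21 and 12.55, a difference of 0.34, and the siControl array was the lowest of all 8.

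Spots of the same probe on 1 array agreed closely. For the probes of these genes with repeated spots, the median SD between spots lay between 0.0253 for VIM and 0.0970 for NF1, and was 0.0597 for CD44 and 0.0543 for CEBPB.

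**Figure D4:**
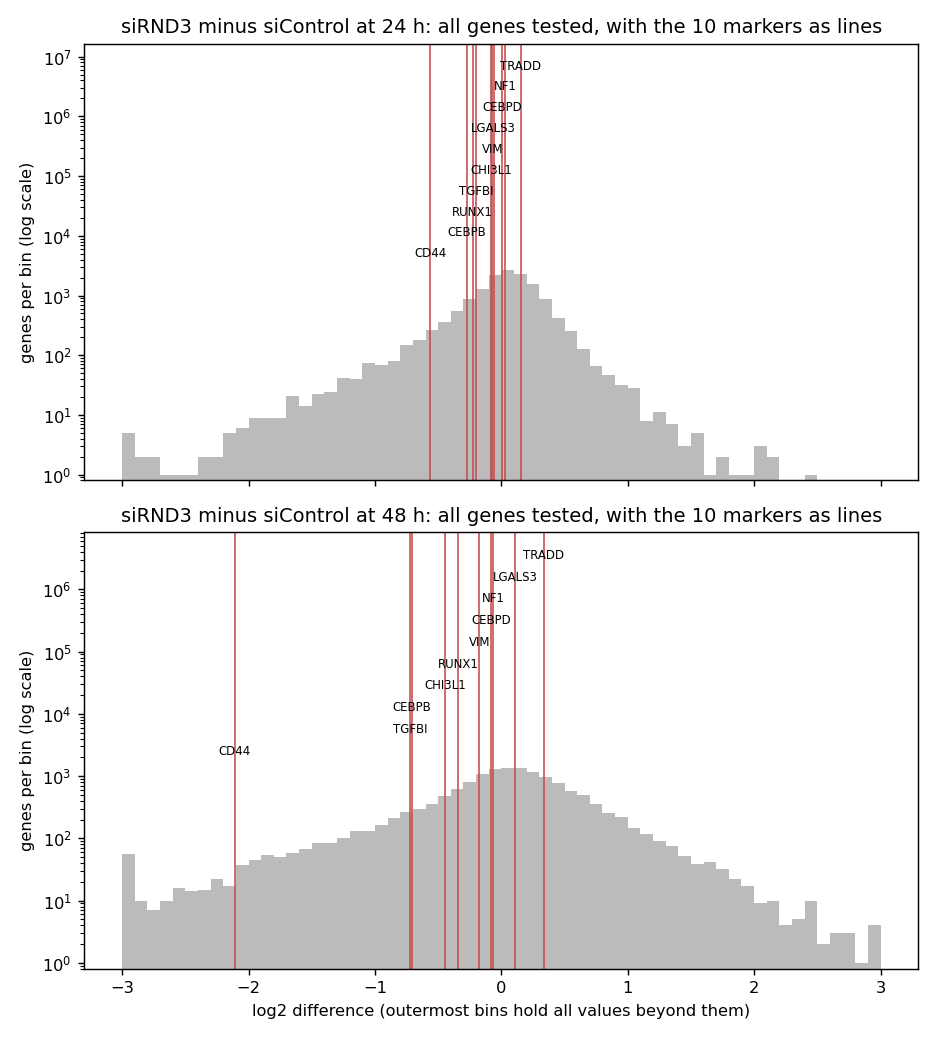
Number of genes (vertical axis, log scale) by log2 difference of siRND3 minus siControl (horizontal axis) over 14797 genes, at 24 h (top) and 48 h (bottom), with a red line at each of the 10 genes. CD44 lies in the lower tail, with 5.85% of genes at or below it at 24 h and 1.11% at 48 h, and the other genes lie nearer to the centre.

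The promoters of the genes that moved are shown because the fall of CD44, CEBPB and 1 RUNX1 probe, and the rise of CHI3L1 with time, are the changes reported here. RefSeq start sites on GRCh38.p14 were found for 8 of the 10 genes. Each sequence is the 250 bases before the start, 5′ to 3′ on the gene's strand. Capitals mark matches, on either strand, to AP-1 (TGANTCA), C/EBP (TTGCNNAA), RUNX (TGTGGT), TEAD (GGAATG), GC box (GGGCGG) or TATA box (TATAAA) letters.
CD44, chr11:35138921-35139170, plus strand: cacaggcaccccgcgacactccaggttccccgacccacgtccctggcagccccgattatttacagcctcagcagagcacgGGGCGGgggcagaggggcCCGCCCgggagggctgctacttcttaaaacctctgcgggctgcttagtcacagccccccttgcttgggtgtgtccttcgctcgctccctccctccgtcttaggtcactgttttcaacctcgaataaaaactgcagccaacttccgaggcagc
CEBPB, chr20:50190333-50190582, plus strand: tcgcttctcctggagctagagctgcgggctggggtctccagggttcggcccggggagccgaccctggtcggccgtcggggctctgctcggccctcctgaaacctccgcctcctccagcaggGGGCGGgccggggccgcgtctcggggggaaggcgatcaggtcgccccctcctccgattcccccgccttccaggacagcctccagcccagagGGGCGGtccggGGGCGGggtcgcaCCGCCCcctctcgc
RUNX1, chr21:34888700-34888949, minus strand: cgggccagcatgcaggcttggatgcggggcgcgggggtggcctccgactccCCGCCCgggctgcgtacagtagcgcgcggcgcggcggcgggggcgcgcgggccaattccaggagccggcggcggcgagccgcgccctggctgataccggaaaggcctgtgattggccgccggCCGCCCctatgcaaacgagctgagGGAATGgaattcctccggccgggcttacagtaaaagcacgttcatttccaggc
CHI3L1, chr1:203186705-203186954, minus strand: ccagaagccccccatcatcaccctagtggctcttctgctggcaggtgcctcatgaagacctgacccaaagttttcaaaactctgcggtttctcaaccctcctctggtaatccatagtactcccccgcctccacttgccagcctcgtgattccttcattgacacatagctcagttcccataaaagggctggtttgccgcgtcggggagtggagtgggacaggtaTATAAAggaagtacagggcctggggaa

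The CD44 window holds 2 GC boxes and none of the other letters searched. GC boxes were in 6 of the 8 genes' windows (CD44, CEBPB, LGALS3, RUNX1, TGFBI and VIM), where 42.6% of 35116 promoter windows hold one. A TATA box was found for CEBPB, in a window before a second start, and for CHI3L1, against 10.7% of all windows. The RUNX letters were found for VIM (3855 of all windows) and the TEAD letters for RUNX1 (11.9%). AP-1 letters (6.57% of all windows) and C/EBP letters (9.05%) were in 0 of the 8. A match is a description of the sequence and no evidence of binding, and a missing match says only that these letters are not in the window.

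Of 23 ligands and partners of CD44 tested, 3 fell and 1 rose at 24 h (17.4% called, against 15.0% of all genes), with a median difference near 0. HAS1, which makes hyaluronan, read 14.75, 14.61 and 14.70 in siControl and 13.09, 13.04 and 12.94 in siRND3 cells. The groups were well apart, and HAS1 fell by 1.66 (limma adjusted p 0.000207), with a difference of -3.71 at 48 h. The hyaluronan receptor HMMR fell by 1.09 (adjusted p 0.000770), with -2.30 at 48 h. MSN, the ERM protein moesin, fell by 0.45 (adjusted p 0.0105), a call that ended without siControl replicate 1 (adjusted p 0.0514) or 3 (adjusted p 0.0602). CEMIP2, described as a cell surface hyaluronidase, rose by 1.10 (adjusted p 0.00106), with 1.46 at 48 h.

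Other regulators of the mesenchymal programme are given by their values. STAT3, a core transcription factor of this programme, had a difference of -0.12 (limma adjusted p 0.563), with overlapping groups. The AP-1 factor FOSL2 had -0.02 (adjusted p 0.915) and its relative FOSL1 had 0.18 (adjusted p 0.220). BHLHE40, a repressor of the bHLH family, had -0.26 (adjusted p 0.0944), and RELA, an NF-κB subunit, had -0.22 (adjusted p 0.151). WWTR1, the YAP-related coactivator TAZ, had -0.07 (adjusted p 0.664) and NFKB1 had -0.02 (adjusted p 0.900). None of these 7 genes passed, where 15.0% of all genes did. The siRND3 arrays lay all below the siControl arrays for BHLHE40 and RELA and all above for FOSL1, so that the groups did not overlap for 3 of the 7, where 41.6% of all genes did not.

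Of 41 further mesenchymal signature genes tested, 8 fell and 3 rose (26.8%, against 15.0% of all genes). Their median was -0.07 at 24 h and -0.14 at 48 h, against 0.04 and 0.06 over all genes. This list holds MET, RELB and TLR4, which the study named on these samples, so its lower counts are not independent evidence of a direction. The deepest falls were of CTSB, the lysosomal protease cathepsin B (-2.43, limma adjusted p 0.000146), and PLAU, the urokinase plasminogen activator (-1.92, adjusted p 0.000146). PLAU read 16.67 on the siControl and 12.21 on the siRND3 array at 48 h. TLR4, a receptor of innate immunity, fell by 1.22 (adjusted p 0.000365) and by 0.70 with normexp background correction. The risers were DCBLD2, a membrane protein (0.60, adjusted p 0.00690, and 0.35 as a mean of its probes), COL5A1, a fibrillar collagen chain (0.56, adjusted p 0.00716), and TNFAIP8 (0.40, adjusted p 0.0170, and 0.22 as a mean of its probes, adjusted p 0.0594). The TNFAIP8 call ended without any 1 siControl array (adjusted p 0.0651 to 0.0703).

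Of 18 tested paralogues and partners of the 10 genes, 1 fell and 1 rose (11.1%, against 15.0% of all genes). CBFB, which encodes CBFβ, the partner of RUNX1, read 11.59, 11.56 and 11.49 in siControl and 10.53, 10.46 and 10.59 in siRND3 cells at 24 h. The groups did not overlap. CBFB fell by 1.02 (limma adjusted p 0.000661), and its difference at 48 h was -1.95. NES, an intermediate filament gene like VIM, rose by 0.41 at 24 h (adjusted p 0.0448), a call that ended without siRND3 replicate 2 or 3 or any 1 siControl array (adjusted p 0.0879 to 0.131). At 48 h NES read 7.53 in siControl and 9.62 in siRND3 cells, the siControl array standing below the 9.57 to 9.61 of 24 h.

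Around NF1, 4 of 17 other Ras GTPase-activating and feedback genes tested fell and 0 rose (23.5%, against 15.0% of all genes). Their median was -0.15 at 24 h and -0.33 at 48 h, against 0.04 and 0.06 over all genes. SPRY2, a feedback inhibitor of the Ras and ERK pathway, fell by 0.60 (limma adjusted p 0.00737). SPRED2 (-0.80, adjusted p 0.0491) and SPRY4 (-0.50, adjusted p 0.0364), of the same family, also fell. The SPRED2 call ended without any 1 of the 6 arrays (adjusted p 0.0593 to 0.131), and that of SPRY4 without any except siRND3 replicate 2 (adjusted p 0.0660 to 0.126).

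Around TRADD, 5 of 23 genes of the TNF receptor 1 complex and its outputs fell and 1 rose (26.1%, against 15.0% of all genes). Their median was -0.05, against 0.04 over all genes. BIRC3, a ubiquitin ligase of the complex, fell by 2.78 at 24 h (limma adjusted p 0.000393), by 1.16 with normexp and by 1.63 in the authors' values. At 48 h its siRND3 signal was not well above background. Set at the lowest value of any probe well above background on that array, it was 41.6-fold lower than in siControl. This value depends on where that floor is set and is no strict bound. CFLAR, the inhibitor of caspase-8, fell by 1.41 (adjusted p 0.000222) and by 0.76 as a mean of its probes. TAB2, which links ubiquitin to the kinase TAK1, fell by 0.85 (adjusted p 0.00164). TRAF2, a direct partner of TRADD, rose by 0.51 (adjusted p 0.00920). Over these lists and the regulators, 27 of 129 genes tested were called, 21 lower and 6 higher, where 15.0% of all genes were called, 8.31% lower and 6.71% higher. The lists were chosen with earlier results of these data known, so neither this count nor that of any 1 list is independent evidence of a direction.

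**Figure D5:**
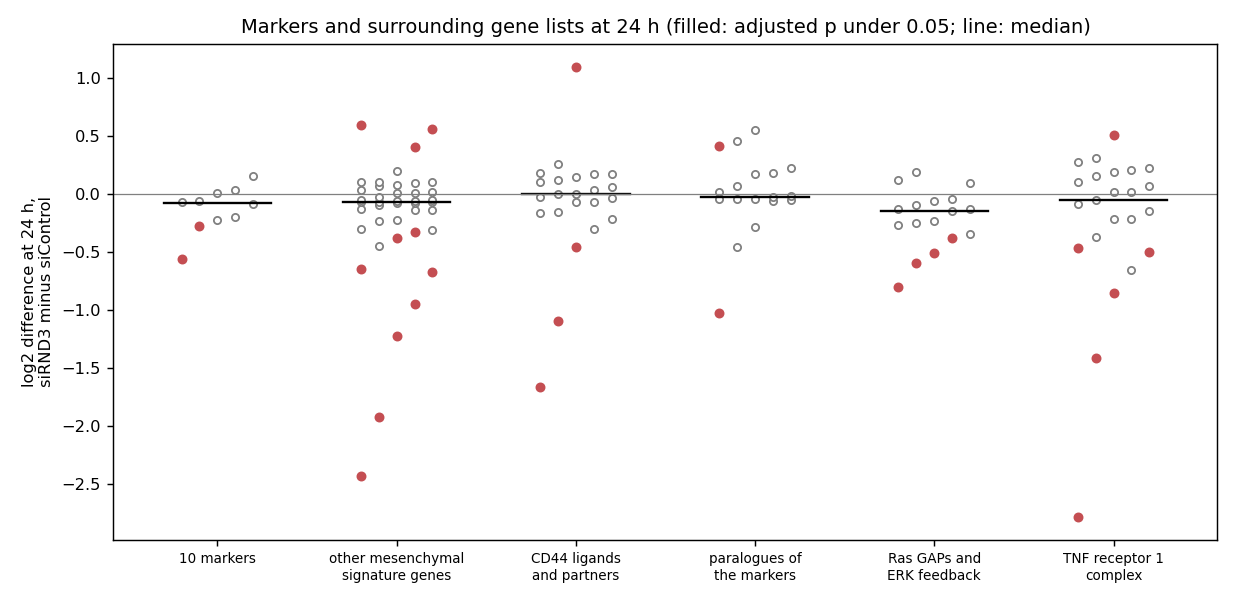
Log2 difference at 24 h of siRND3 minus siControl (vertical axis) for the 10 genes and for the tested genes of 5 lists around them (horizontal axis), 1 point a gene, filled where the limma adjusted p was under 0.05, with a line at each median. Medians lie between -0.15 and 0.00, and the called genes spread from -2.78 for BIRC3 to 1.10 for CEMIP2.

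The genes most like CD44 over the 8 arrays were found among 14120 other genes by Pearson's r of the brightest probes, which here weighs the siRND3 array at 48 h heavily. They were HEBP2 (r = 0.9982, and 0.990 over the 7 arrays without that one), DEPDC1 (0.9962 and 0.979), VEGFA (0.9958 and 0.986), IGFBP7 (0.9956 and 0.978) and RBPJ (0.9946 and 0.980). HEBP2 followed CD44 with a smaller range, from 12.00 on the highest to 11.45 on the lowest array. VEGFA, the angiogenic growth factor, had about the same range as CD44, from 12.84 on the siControl to 10.59 on the siRND3 array at 48 h. Of the other 9 genes, TGFBI was most like CD44 (r = 0.938), then RUNX1 by its brightest probe (0.830), CEBPB (0.801) and VIM (0.755). TRADD (-0.364), CHI3L1 (-0.104), LGALS3 (-0.082), CEBPD (0.059) and NF1 (0.0466) did not follow it closely. The points share 1 slide and the same 8 arrays, and these values are a description with no test.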

How the data were processed

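The 8 one-colour arrays (Cy3, total RNA) were scanned and extracted by the authors with Agilent Feature Extraction 10.7.3.1, per the file headers, and the deposited intensity is background-subtracted signal. The deposited log2 table held the same arrays with medians of 6.58 to 6.59 and the rank order of the spot medians (Spearman 1), so it appears quantile-normalised without background subtraction, and was used as an alternative. Here, 4259 control spots of 62976 and outlier-marked spots (0.364% to 0.530% an array) were left out, log2 intensity was quantile-normalised over 8 arrays, and spots were averaged per probe. Probes were tested where, on all 3 arrays of either 24 h group, at least 50% of a probe's spots were well above background. Between 68.3% and 70.7% of probes were so on each array, no spot was saturated, and the number of arrays limits the precision.

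Probes were named by RefSeq accession without version (25422 of 42405, 60.0%). A gene is called by its brightest probe over the 6 arrays at 24 h. Differences at 24 h were fitted with limma 3.58.1 in R 4.3.3 on those 6 arrays, and changes of effect and of time on all 8, with Benjamini-Hochberg adjustment at 0.05. The methods name SAM at a false discovery rate of 5%, run here as an alternative. All members and RND3 are named, and from each list up to 3 called genes a direction by size. Of the lists, 1 gene is not reported here and is in none of the list counts. Members and lists were chosen with earlier results of these data known. The fit was tested on simulated data. Outlier spots kept was an alternative chosen after seeing the data.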

Additional observations from a re-analysis of the deposited data

Results flagged for a closer look

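The knockdown effect on CD44 differed between the time points by the test of the difference itself, a call lost under 4 of the 14 alternatives. These were the fits without any 1 siControl array of 24 h and the fit with the replicate number as a block. Between 24 and 48 h the effect moved by -1.55 on the log2 scale (limma adjusted p 0.0184, range over 14 alternatives -1.66 to -1.51, adjusted p 0.000793 to 0.117), from 3 arrays a group at 24 h and 1 at 48 h. The difference was below 0 at both times, and the single siRND3 array at 48 h read 13.77 against 15.09 to 15.30 at 24 h.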

How the results depend on the processing

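CD44 at 24 h kept its call under all 19 alternatives run, and CD44 stayed the 1 gene of 10 past -1 at 48 h under the 6 run there. The count of 2 genes lower at 24 h was 1 under scaling to the 75th percentile and 1 to 1 when any 1 array was left out. The count of 1 for the change of effect was 0 to 1, for time in siControl cells 0 to 1, and for time in siRND3 cells 1 to 2 with 1 array left out, the 0 coming without any 1 siControl array and the 2 without siRND3 replicate 2. Time in siControl cells gave 2 with normexp, and time in siRND3 cells 2 with normexp, with the authors' values and with a filter on all 6 arrays. Of 27 list genes called, the count was 17 to 22 with 1 array left out (17 without siControl replicate 1 or 3) and 17 to 33 over all alternatives. The count over all 14797 genes ranged from 931 (without siControl replicate 3) to 3183 (means of all probes of a gene). The cause was not tested.

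The correlations of same-numbered deviations were 0.00186, -0.0116 and 0.129, and those of the other pairs ran from -0.134 to 0.112. With 3 arrays a group they cannot exclude a pairing of the samples, and no source states one. At 24 h the replicate number was also the slide column in both rows. With the replicate number as a block, the counts were 1 at 24 h (CD44), 0 for the change of effect, 0 and 0 for time in siControl and siRND3 cells, and 17 for the lists. In that block fit the time change in siRND3 cells was 0.0039 for CEBPD and 0.16 for NF1, both on the other side of 0.

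Values near 0 changed sign, none of them past the threshold. At 24 h CEBPD was -0.0092 with normexp, -0.0073 in the authors' values, -0.015 over all 8 arrays, and -0.044 to 0.078 with 1 array left out. VIM was 0.0066 at the 75th percentile, NF1 -0.17 to 0.15 and LGALS3 -0.10 to 0.023 with 1 array left out. The NF1 change of effect was -0.22 to 0.11. Over time in siRND3 cells NF1 was 0.023 at the 75th percentile, and with 1 array left out NF1 was -0.13 to 0.20, CEBPD -0.081 to 0.041 and LGALS3 -0.037 to 0.087. The share of higher among calls over all genes was 45.7%, and 53.2% at the 75th percentile, where the median of all genes was 0.07.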
